A study of Homo sapiens with 4 samples.

Results

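The serine and one-carbon enzymes described here are 10 genes: PHGDH, PSAT1 and PSPH, which build serine, SHMT1, SHMT2, MTHFD1, MTHFD1L, MTHFD2 and ALDH1L2, which move its carbon through the folate pool, and MAT2A, which makes S-adenosylmethionine. They were taken as every row of the deposited transcript table that carries one of the 10 gene symbols, which gave 42 of 43596 transcripts and 10 of 15113 genes. The cells were MDA-MB-231, a human triple-negative breast cancer line, treated for 24 h with either the vehicle DMSO (2 libraries) or 10 µM of KH-3 (2 libraries), a small molecule reported to inhibit the RNA-binding protein HuR. Poly(A)-selected RNA was sequenced, and the study's methods call the duplicates biological replicates.

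The table gives 1 mean normalised read count for each transcript, averaged over libraries with no separation of vehicle from KH-3, and the libraries averaged are not named. The study's methods list a further group at a lower dose of KH-3, whose libraries may also enter the mean. A level reported here is therefore that of neither condition, carries no replicate error, and says nothing of a response to KH-3. The table's only values that set KH-3 against DMSO are the authors' own comparison, which was not used. Depth per library is unknown, and in bulk RNA fewer cells and less RNA per cell cannot be told apart. A gene's level is its mean normalised count per kilobase of annotated transcript, summed over its listed transcripts. The lowest mean in the table was 7.34, so a transcript with no row may have been below a cutoff, and its level was not analysed here.

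In serine synthesis PHGDH oxidises 3-phosphoglycerate from glycolysis, PSAT1 adds the amino group, and PSPH removes the phosphate. The SHMT enzymes split serine into glycine and a carbon unit carried on tetrahydrofolate, SHMT1 in the cytosol and SHMT2 in mitochondria. The unit is oxidised in mitochondria by MTHFD2 and released as formate by MTHFD1L or as carbon dioxide by ALDH1L2, and MTHFD1 takes formate up again in the cytosol for purine, thymidylate and methionine synthesis. Rapidly dividing tumour cells are known to draw on these routes for nucleotides.

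Markers known for this line were checked first. All 6 mesenchymal markers had rows and 5 of them lay above the median gene, with VIM, the intermediate filament vimentin, at 10135 per kilobase. FN1, fibronectin, lay below it at 8.64. Of 6 luminal or epithelial markers 3 had rows, at 29.5 to 43.3 per kilobase, and ESR1, PGR and CDH1 had none. Of 3 markers of other cells only PECAM1 had a row, at 4.08.

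The 10 enzymes were expressed over a wide range. MAT2A was the highest at 2440.1 per kilobase (place 352 of 15113 genes), and ALDH1L2 the lowest at 1.79 (place 15020), a ratio of 1366. MAT2A was at 1514 with coding transcripts only and 1249.8 with its most abundant transcript only, and stayed the highest of the 10 under both. Between the highest and the lowest PSAT1 stood at 1390.4, MTHFD1 at 872, MTHFD2 at 821, PSPH at 551, PHGDH at 352, SHMT1 at 266, MTHFD1L at 221 and SHMT2 at 62.4. The levels of MTHFD2 and PSPH depended on which transcripts were summed: with coding transcripts only they were 455 and 334, and with the most abundant transcript only 132 and 205. The most abundant transcript was the one with the highest mean normalised count before division by length. For MTHFD2 this was MTHFD2-001, at 132 per kilobase, although MTHFD2-007 stood at 346. The median member level was 451 per kilobase against 108 for the median listed gene. Of the members 8 lay above that gene, 2 below it and 6 among the highest 25% of all genes. All 10 members are protein-coding genes, but only 12489 of the 15113 listed genes are protein coding in GENCODE release 44. The median and places were not recomputed among those alone. The SHMT2 value holds no protein-coding transcript, so the place of its coding message against the median gene is unknown. With a single pooled value per transcript, no difference between neighbours in this order could be set against a spread. The closest neighbours were MTHFD1 and MTHFD2 (ratio 1.06) and SHMT1 and MTHFD1L (1.20), and the widest gap separated SHMT2 from ALDH1L2 (34.9). The members together held a summed mean normalised count of 14861, of which 11 of the 42 transcripts had a mean under 20.

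**Figure D1:**
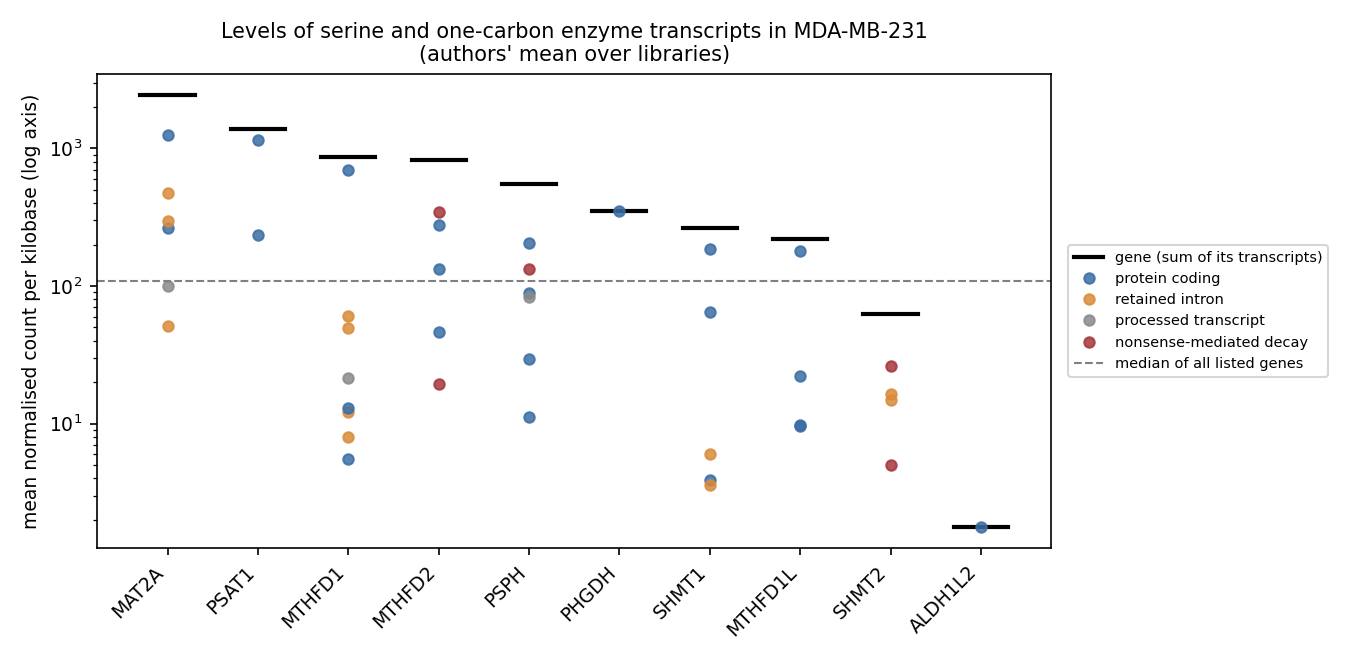
Mean normalised count per kilobase (log axis) of the 10 serine and one-carbon enzymes, with each point a listed transcript coloured by its annotated type, each black bar the sum for the gene and the dashed line the median of all listed genes. MAT2A stands highest at 2440.1, and SHMT2 (62.4, no coding transcript listed) and ALDH1L2 (1.79) lie below the median gene at 108. No point carries an error because the authors' value is a mean over libraries.

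The enzymes of serine synthesis did not stand at a common level. PSAT1 (chr9:78297125-78330093, hg38, plus strand) was at 3.95 times the level of PHGDH and 2.53 times that of PSPH, and PSPH was at 1.56 times the level of PHGDH. The place of PSPH was not stable: with coding transcripts only it stood at 0.949 times PHGDH and PSAT1 at 4.16 times PSPH, and with the most abundant transcript only these ratios were 0.581 and 5.65. PHGDH (chr1:119648411-119744218, plus strand), which catalyses the first step, had a single row, PHGDH-001, with a mean normalised count of 673. PSAT1 was divided between 2 coding transcripts. PSAT1-001 held a mean of 2529.9 (88.4% of the gene's reads) and PSAT1-002 a mean of 330.4 (11.6%). PSAT1-002 lacks exon 8, a coding exon of 138 bases or 46 codons, so that the reading frame is kept. Its sequence is shown because it is the only internal exon that separates the 2 forms of the enzyme, with the exon in capitals and 20 intron bases on each side in lower case.
PSAT1 exon 8, chr9:78328051-78328188, plus strand: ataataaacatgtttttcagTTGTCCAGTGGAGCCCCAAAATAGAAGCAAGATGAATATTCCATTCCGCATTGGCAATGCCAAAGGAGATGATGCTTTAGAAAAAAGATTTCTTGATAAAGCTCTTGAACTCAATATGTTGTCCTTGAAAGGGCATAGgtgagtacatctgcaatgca

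PSPH (chr7:56011051-56051604, minus strand), the phosphatase of the last step, had 6 rows. PSPH-002 held a mean normalised count of 445 (48.8% of the reads), PSPH-001 a mean of 189 (20.7%) and PSPH-012, annotated as a target of nonsense-mediated decay, a mean of 189 (20.6%). A share of reads on such transcripts above that of PSPH was found in 7.53% of 12489 protein-coding genes. PSPH-012 lacks exons 2 and 3 of PSPH-002, of 194 and 126 bases, and its annotated coding sequence has the same 675 bases as the other 2. The pseudogene PSPHP1 also had 1 row, with a mean normalised count of 33.0, and reads of near-identical sequence may have been divided between them, so the PSPH values are uncertain.

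The paired serine hydroxymethyltransferases differed in what the table lists of them. SHMT1 (chr17:18327860-18363563, minus strand), the cytosolic enzyme, stood at 4.26 times the summed level of SHMT2 (chr12:57229573-57234935, plus strand), the mitochondrial enzyme. With the most abundant transcript only, SHMT2 stood at 0.140 times SHMT1. Neither ratio compares the coding messages, because none of the 4 SHMT2 rows is a protein-coding transcript. SHMT2-012 (decay target) had a mean normalised count of 60.6, SHMT2-002 (retained intron) of 50.3, SHMT2-004 (decay target) of 11.1 and SHMT2-024 (retained intron) of 7.52. The coding SHMT2 transcripts had no row and were not analysed here. Of the 12489 protein-coding genes with rows, 442 (3.54%) likewise had none for a coding transcript. SHMT2-002 keeps 5 introns of SHMT2-012 within its exons, the longest of 712 bases.

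SHMT1 was carried mainly by SHMT1-001, with a mean normalised count of 461 (76.2% of reads), and by SHMT1-003, with 108 (17.9%). SHMT1-003 lacks exon 8, which is 117 bases or 39 codons long and leaves the frame unchanged. This exon is shown as for PSAT1, exon in capitals and intron in lower case, in the direction of the gene.
SHMT1 exon 8, chr17:18335559-18335675, minus strand: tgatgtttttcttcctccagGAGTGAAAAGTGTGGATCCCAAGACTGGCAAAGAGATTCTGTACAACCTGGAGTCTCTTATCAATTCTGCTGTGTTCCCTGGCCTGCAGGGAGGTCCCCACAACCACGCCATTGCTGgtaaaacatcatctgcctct

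Among the folate enzymes, MTHFD1 (chr14:64388031-64463457, plus strand), the cytosolic trifunctional enzyme, and MTHFD2 (chr2:74186172-74217565, plus strand), the mitochondrial dehydrogenase and cyclohydrolase, stood at close levels, with MTHFD2 at 0.941 times MTHFD1. With transcripts of a mean under 20 left out, MTHFD2 stood at 1.00 times MTHFD1. The levels were less close with coding transcripts only, at 0.631, and with the most abundant transcript of each gene alone, at 0.189. MTHFD1L (chr6:150865679-151101887, plus strand), which releases mitochondrial formate, was lower, at 0.253 times MTHFD1. MTHFD2 stood at 3.71 times MTHFD1L, a ratio that was 2.06 with coding transcripts only and 0.738 with the most abundant transcript only. The ratios 0.189 and 0.738 use the MTHFD2 transcript with the most reads, which is not its highest per kilobase. ALDH1L2 (chr12:105019784-105107643, minus strand), the other outlet for the mitochondrial carbon unit, had a single row with a mean normalised count of 13.5, over a transcript of 7547 bases.

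MTHFD1 was almost entirely MTHFD1-019, with a mean normalised count of 2201 (93.4% of reads), and its 7 other rows ranged from 7.40 to 41.4. MTHFD1L was mainly MTHFD1L-202, with a mean of 567 (86.0%), whose annotated coding sequence has 2739 bases against 2934 in the gene's reference transcript. MTHFD2 differed from both in that its reads were divided among 3 transcripts. MTHFD2-001, the full coding form, held a mean of 590 (35.4%), MTHFD2-003 a mean of 485 (29.1%) and MTHFD2-007, a decay target, a mean of 483 (29.0%). Per kilobase the order was the opposite, with MTHFD2-007 at 346, MTHFD2-003 at 276 and MTHFD2-001 at 132, since the last is the longest. The share of MTHFD2 reads on decay targets was 30.3%, and 5.56% of protein-coding genes had a higher share. How the reads of shared exons were divided among these transcripts was estimated by the authors' quantifier and has no error in the table.

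The MTHFD2 forms differ by whole internal exons. The annotated coding sequence of MTHFD2-007 has 111 bases against 1050 in MTHFD2-001. MTHFD2-003 lacks exons 3, 4 and 5, of 123, 153 and 108 bases, each a multiple of 3, which leaves 384 fewer coding bases. These 3 exons are shown because they separate the shorter coding form from the full one. Exons are in capitals and 20 flanking intron bases in lower case. Each of these exons, and both exons shown earlier, is preceded by AG and followed by GT.
MTHFD2 exon 3, chr2:74207704-74207826, plus strand: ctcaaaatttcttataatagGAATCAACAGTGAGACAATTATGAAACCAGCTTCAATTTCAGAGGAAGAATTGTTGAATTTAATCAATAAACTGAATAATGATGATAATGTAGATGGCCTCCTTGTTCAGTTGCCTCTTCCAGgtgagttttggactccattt
MTHFD2 exon 4, chr2:74208569-74208721, plus strand: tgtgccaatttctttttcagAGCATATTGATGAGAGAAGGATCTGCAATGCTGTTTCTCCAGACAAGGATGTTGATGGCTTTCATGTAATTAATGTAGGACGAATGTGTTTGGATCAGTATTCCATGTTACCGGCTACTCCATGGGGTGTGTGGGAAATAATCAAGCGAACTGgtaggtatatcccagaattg
MTHFD2 exon 5, chr2:74209942-74210049, plus strand: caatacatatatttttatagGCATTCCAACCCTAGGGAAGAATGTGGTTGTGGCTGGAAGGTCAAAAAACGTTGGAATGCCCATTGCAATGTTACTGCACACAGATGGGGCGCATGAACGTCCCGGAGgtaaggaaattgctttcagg

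**Figure D2:**
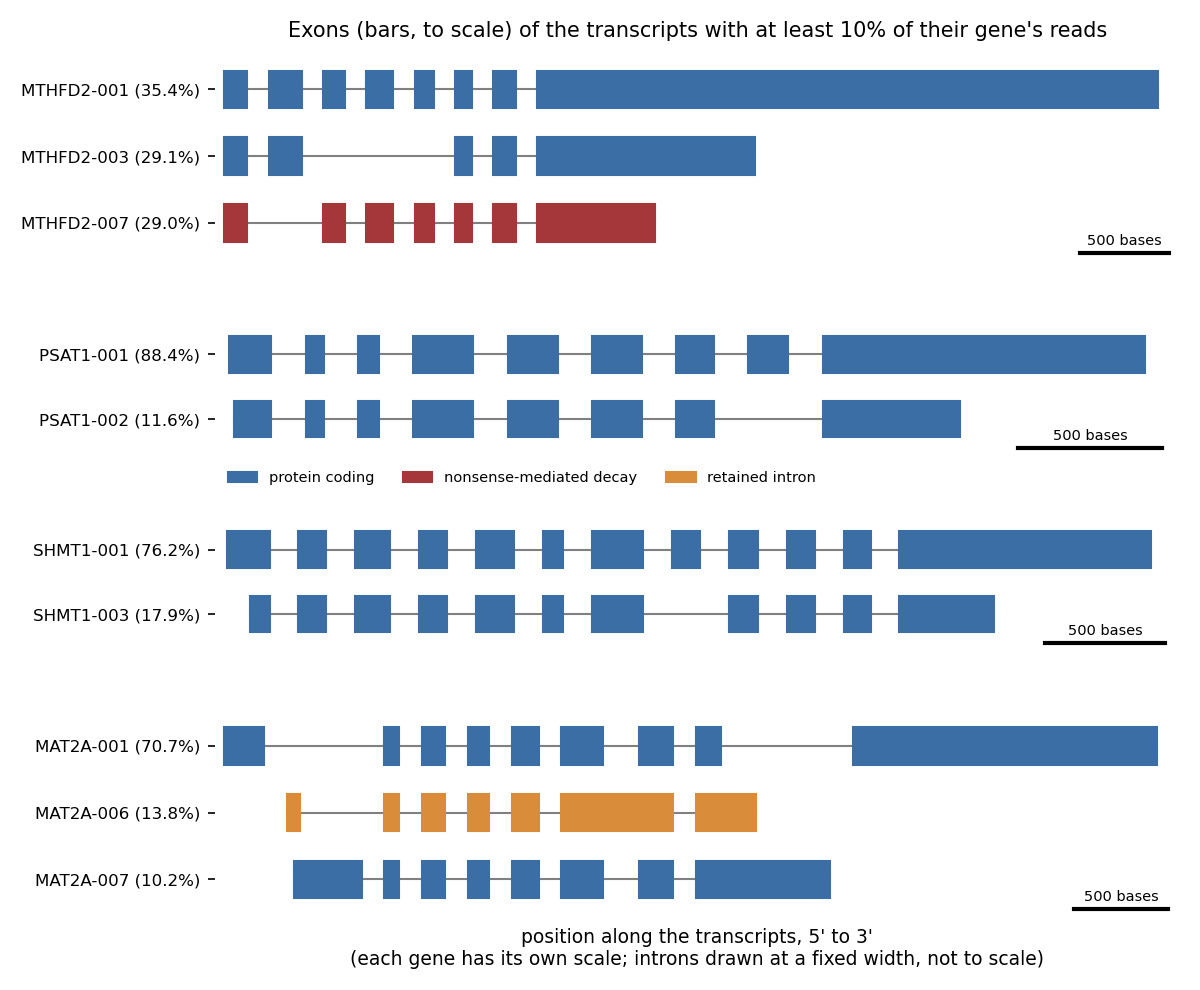
Exons (bars, to scale within each gene, with a scale bar) of the transcripts of MTHFD2, PSAT1, SHMT1 and MAT2A with at least 10% of their gene's reads, drawn 5′ to 3′ from the GENCODE release 44 models, with introns not to scale and colour giving the annotated type. MTHFD2-003 lacks exons 3 to 5, MTHFD2-007 lacks a single internal exon, and PSAT1-002 and SHMT1-003 each lack exon 8. MAT2A-006 and MAT2A-007 start in another first exon than MAT2A-001, run on into intron 8 and end there.

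MAT2A (chr2:85539168-85545281, plus strand), which makes S-adenosylmethionine from methionine and ATP, held 33.5% of the members' reads. MAT2A-001 had a mean normalised count of 3523 (70.7% of the gene's reads), MAT2A-006, a retained-intron transcript, 688 (13.8%), and MAT2A-007, annotated as coding, 508 (10.2%). MAT2A-006 keeps intron 6, of 191 bases, and extends 184 bases into intron 8. MAT2A-007 extends 574 bases into the same intron. Both transcripts also start in another first exon than MAT2A-001. MAT2A-007 has 288 fewer coding bases, and how these divide between its 2 ends was not worked out. Retained-intron transcripts took 18.0% of MAT2A reads, a share exceeded in 13.5% of protein-coding genes.

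The MAT2A mRNA is known to carry hairpins in its 3′UTR that the methyltransferase METTL16 binds and that link splicing of its last intron and stability of the message to S-adenosylmethionine. The 1509-base 3′UTR of its reference transcript held 6 matches to UACAGANAA on the sense strand. They are shown because intron 8, which MAT2A-006 and MAT2A-007 enter, is the last intron of this gene. As annotated, both of these transcripts end within intron 8 and lack the last exon, so neither carries any of these 6 matches. The motif is in capitals within 30 bases, and positions count from the first base of the 3′UTR.
MAT2A 3′UTR, bases 40 to 48: uggcguaggcUACAGAGAAgccuucaagcu
MAT2A 3′UTR, bases 827 to 835: ugugaugucaUACAGAGAAgucacagggca
MAT2A 3′UTR, bases 1012 to 1020: cugguguagcUACAGAGAAaccagcuuccu
MAT2A 3′UTR, bases 1127 to 1135: auggcguaagUACAGAGAAgccaucaccuc
MAT2A 3′UTR, bases 1242 to 1250: caagguguccUACAGAAAAaccuuggguua
MAT2A 3′UTR, bases 1350 to 1358: gcugguguggUACAGAGAAgccagcuuguu

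Of 12272 listed genes with a reference 3′UTR, 7.27% held at least 1 match, no gene other than MAT2A held more than 3, and none of the other 9 serine and one-carbon enzymes held any. The 6 motifs were 5 of UACAGAGAA and 1 of UACAGAAAA. The number of letters matched is a description of sequence and no measure of methylation or binding in these cells.

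Taken over the 10 enzymes, protein-coding transcripts held 86.7% of the reads, and 75.2% of the summed level per kilobase. They made up 23 of the 42 rows, beside 11 retained-intron, 5 decay-target and 3 processed transcripts. For PSAT1, PHGDH, MTHFD1L and ALDH1L2 all listed reads lay on coding transcripts, as they did in 45.2% of protein-coding genes. The median coding share was 95.5% for the members and 98.2% for all protein-coding genes. MTHFD2, PSPH, MAT2A and SHMT2 were the 4 members with the lowest coding shares, at 69.7%, 73.1%, 80.9% and 0%. The PSPH share counts PSPH-012, whose decay label is uncertain, as not coding.

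**Figure D3:**
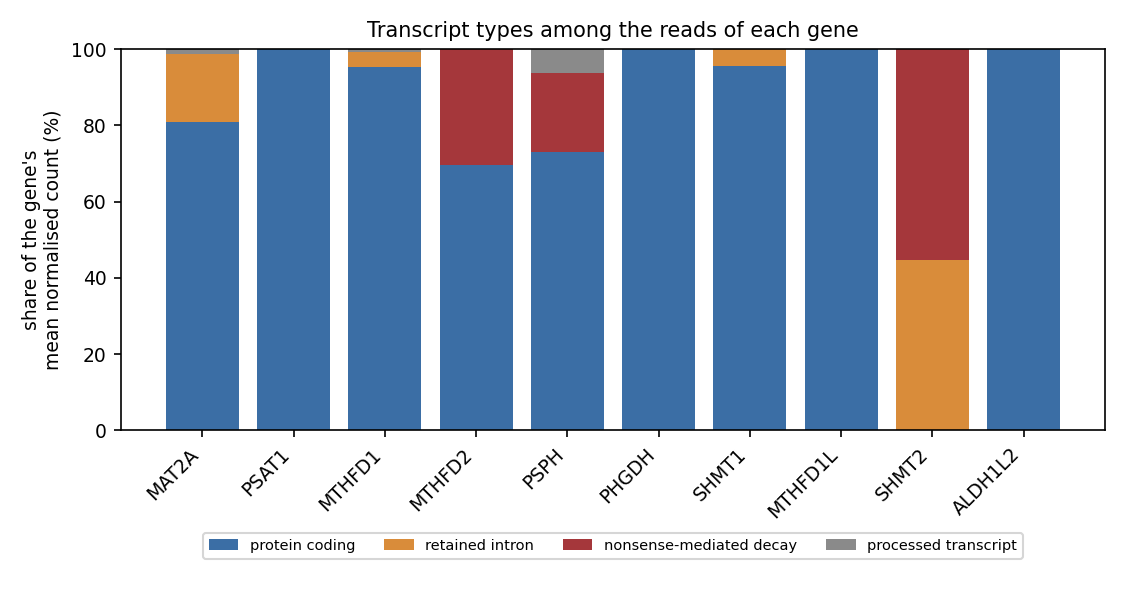
Share of each gene's summed mean normalised count (percent, bars from 0 to 100) on protein-coding, retained-intron, nonsense-mediated-decay and processed transcripts. By the deposited labels, the decay-target share is 30.3% for MTHFD2 and 20.6% for PSPH, the retained-intron share is 18.0% for MAT2A, and SHMT2 has no coding transcript in the table. The PSPH share rests on PSPH-012, whose label is uncertain.

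HuR is known to bind AU-rich stretches in 3′UTRs, and AUUUA is the core letters of the AU-rich element. The reference 3′UTRs of 6 of the 10 enzymes held at least 1 AUUUA, against 74.1% of the 12272 genes. Per kilobase of 3′UTR, 6 of the 10 stood above the median of these genes, 1.77 matches. MTHFD2 held 10 in 3323 bases and ALDH1L2 13 in 4634 bases, while MAT2A held 3, PSAT1 and SHMT1 2 each and MTHFD1L 1. The MTHFD2 3′UTR is that of MTHFD2-001, which held 35.4% of the gene's reads. Of its last exon of 3487 bases, MTHFD2-003 carries 1220 and MTHFD2-007 carries 663. PHGDH, PSPH, SHMT2 and MTHFD1 held none. Of the 10 enzymes 3 had a 3′UTR longer than the median of 1357.5 bases. Only the sense strand was searched, and a match is not a measured binding site.

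The neighbouring pathways were read from 4 lists of 46 genes, of which 34 had rows, at a median of 151 per kilobase, with 21 above the median gene and 13 below it. These levels sum all listed transcripts, coding or not, and the lists were not recomputed with coding transcripts only. GGH, MTRR, GCSH and MTFMT lay above the median gene with only 3.24%, 12.7%, 29.1% and 30.8% of their reads on coding transcripts. In the folate cycle 13 of 14 genes had rows, 6 above and 7 below the median gene. TYMS, thymidylate synthase, was the highest of all 46 at 3886 per kilobase, with 64.2% of its reads on coding transcripts. SLC19A1, the reduced folate carrier, was the lowest at 3.24. FTCD, a histidine-catabolic folate enzyme, stood at 9.63, on a single row that is a processed transcript and not the coding message. ALDH1L1, the cytosolic counterpart of ALDH1L2, had no row.

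For the methionine cycle and transsulfuration 8 of 12 genes had rows, 7 of them above the median gene. AHCY, which cleaves S-adenosylhomocysteine, stood at 1729 per kilobase, with 37.2% of its reads on its coding transcript. MAT1A, the liver counterpart of MAT2A, stood at 7.06. BHMT and BHMT2, which remethylate homocysteine with betaine-derived methyl groups, CBS, which opens transsulfuration, and MTAP, which salvages methylthioadenosine, had no row. For serine transport and racemisation 8 of 10 genes had rows, 5 above the median gene. SLC38A2, a neutral amino acid transporter, stood at 2240.9, with 62.6% of its reads on coding transcripts. The transporter SLC7A10 and the serine dehydratase SDS had no row.

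The glycine list was the least covered, with 5 of 10 genes in the table, 3 above and 2 below the median gene. GLDC and AMT, the decarboxylase and aminomethyltransferase of the mitochondrial glycine cleavage system, had no row, and neither had TDH, GNMT and DMGDH. These 12 genes with no row were looked for by symbol and by gene identifier, and their levels were not analysed here.

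**Figure D4:**
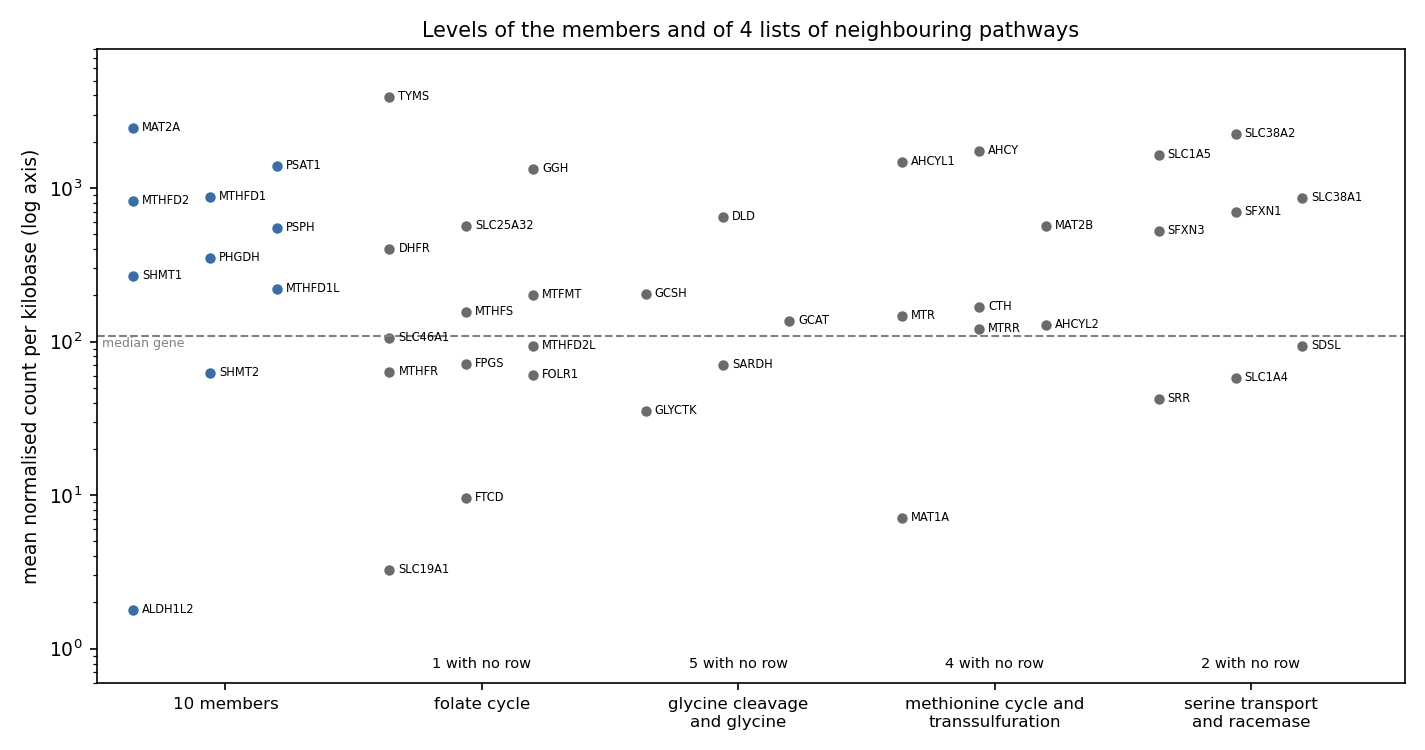
Mean normalised count per kilobase (log axis) of the 10 members (blue) and of the listed genes of 4 neighbouring pathway lists (grey), with the dashed line at the median listed gene and the number of genes with no row under each list. TYMS (3886) is the highest point and ALDH1L2 (1.79) the lowest, and 5 of the 10 glycine genes have no row.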

How the data were processed

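Total RNA of 4 MDA-MB-231 libraries (groups of 2) was harvested with Trizol and made into TruSeq mRNA libraries. Per the labels and the study's methods, the authors mapped reads to GENCODE 24 transcripts (build hg38) with STAR, estimated a count for each with eXpress and normalised and compared them with DESeq2; tool versions are not given in the sources used here. The deposited mean normalised read count of each transcript, a signal pooled over libraries, was the only column used. The other 3 numeric columns hold the authors' comparison of KH-3 with DMSO (fold change, p-value and q-value) and were not used, so no test was run. Levels were divided by transcript length in kilobases and summed per gene in Python 3.11.15 (pandas 2.3.3, numpy 2.4.6, matplotlib 3.10.9), and the code was tested on simulated data. Sequences and exons come from hg38 and GENCODE 44, in which 41 of the 42 transcripts were matched by identifier, 30 at the same length; MTHFD1-019 was not. The sequence of a further MTHFD2 exon is not reported here. The members and lists were chosen with earlier results of these data known. Named were all 10 members, their transcripts with at least 10% of the gene's reads, and from the lists the 3 highest, the 3 lowest and those with no row. Other SHMT2 transcripts, VIM, FN1, PECAM1, PSPHP1, GGH, MTRR, GCSH and MTFMT were named after their values were seen. Alternatives were coding transcripts only, the most abundant transcript only (chosen by mean normalised count before division by length), no division by length, lengths shortened by 200 bases, and a mean of at least 20.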

Additional observations from a re-analysis of the deposited data

How the results depend on the processing

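With no replicate spread, a value was taken as moved past a ratio of 1.5 and as reversed when a ratio crossed 1. Of 96 values recomputed under 5 alternatives, 69 stayed within these bounds. The count of members above the median gene was 8 under each. It was out of 9 with coding transcripts only, which drops SHMT2, and with a mean of at least 20, which drops ALDH1L2. Elsewhere it was out of 10. The ratio of MTHFD2 to MTHFD1 crossed to 1.00 with transcripts of a mean of at least 20, which removes rows of MTHFD1 only. It was 0.631 with coding transcripts only. With the most abundant transcript only it was 0.189, since MTHFD2-001 holds 35.4% of the reads and, at 4456 bases, 16.1% of the level per kilobase, and the ratio of SHMT2 to SHMT1 was 0.140. The ratios of PSPH to PHGDH, PSAT1 to PSPH and MTHFD2 to MTHFD1L were recomputed in the same way after the data were seen. With coding transcripts only they were 0.949, 4.16 and 2.06, and with the most abundant transcript only 0.581, 5.65 and 0.738. With coding transcripts only SHMT2 has no value. Of 48 levels of single members, 30 stayed within the bounds, and the 10 taken with no division by length are on another scale. No paired analysis was possible because the table holds no value per library, and for the same reason leaving out each replicate was not run. Depth per library is unknown, and values of transcripts that share exons depend on how reads were divided among them.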
